A study of Mus musculus with 36 samples.

Results

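The messenger RNAs of 9 secreted plasma proteins of the liver were followed from the last days of gestation to adulthood. These were the fetuins Ahsg and Fetub, the 4 inter-alpha-trypsin inhibitor heavy chain genes Itih1, Itih2, Itih3 and Itih4, and the light chain precursor Ambp. The others were the heme carrier Hpx and the zinc-alpha-2-glycoprotein Azgp1. The genes were chosen by symbol, and all 9 were present among the 21889 symbols of the table. The 36 livers came from male C57BL/6 mice (substrain C57BL/6J in the study's methods), with 3 mice at each of 12 ages, and no group carried a treatment or an altered allele. The ages were GD17.5 (a late gestational day, given as Day -2 in the sample labels), Day 0 (at birth, before the pups had suckled), Days 1, 3, 5, 10, 15 and 20 (suckling) and Days 25, 30, 45 and 60 (after weaning at 21 days of age). Whole liver was measured, so that fewer hepatocytes and less RNA per hepatocyte cannot be told apart in any value below. Levels are FPKM, that is, mapped fragments divided by exon length and by library size, so that levels of different genes can be compared.

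Fetuin-A, the product of Ahsg, binds calcium phosphate in plasma and keeps mineral from settling in soft tissue, and fetuin-B, the product of Fetub, inhibits the egg protease ovastacin and is needed for female fertility. Inter-alpha-trypsin inhibitors are assembled in hepatocytes from heavy chains that are joined to bikunin, a Kunitz-type protease inhibitor, by a chondroitin sulfate chain. Bikunin is cut from the precursor encoded by Ambp, which also yields the heme-binding lipocalin alpha-1-microglobulin. In tissues the heavy chains of the assembled proteins are passed to hyaluronan by the enzyme TSG-6, the product of Tnfaip6. The product of Itih4 circulates without bikunin.

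Several of the genes are neighbours. On NCBI37/mm9, Ahsg lay at chr16:22892115-22899511 (+) and Fetub at chr16:22918455-22939839 (+), 18943 bases apart, and the histidine-rich glycoprotein gene Hrg began 11305 bases beyond Fetub. Itih4 (chr14:31699662-31715167, +), Itih3 (chr14:31721759-31736946, -) and Itih1 (chr14:31742366-31756475, -) formed a second cluster, with 6591 and 5419 bases between them. Itih2 lay alone among the members at chr2:10016218-10053023 (-), 22174 bases from Itih5. The remaining genes were Ambp (chr4:62804309-62815833, -), Hpx (chr7:112740127-112748630, -) and Azgp1 (chr5:138422749-138431461, +). The GENCODE M1 annotation listed all 9 as protein coding, and no other annotated gene overlapped any of them.

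The letters TGTTTGC, the core of a binding motif of the liver FOXA factors, stood within the 250 bases before the start of Ahsg, Fetub and Ambp (3 of the 9 genes), and in 4.3% of 32851 mouse gene starts in the same window, with both strands searched. These 3 windows are shown because they hold the only match of this motif among the members, in 2 neighbouring genes and in the light chain precursor. The sequences are the 100 bases before the start in the direction of the gene, from RefSeq on GRCm38.p6 (a later build than that of the expression table), at chr16:22891915-22892014 (+) for Ahsg, chr16:22918282-22918381 (+) for Fetub and chr4:63154173-63154272 (-) for Ambp. Capitals mark TGTTTGC or its reverse complement.
Ahsg: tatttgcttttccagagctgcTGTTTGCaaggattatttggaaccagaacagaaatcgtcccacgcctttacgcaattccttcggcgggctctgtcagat
Fetub: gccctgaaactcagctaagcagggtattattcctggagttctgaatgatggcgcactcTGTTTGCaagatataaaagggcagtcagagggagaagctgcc
Ambp: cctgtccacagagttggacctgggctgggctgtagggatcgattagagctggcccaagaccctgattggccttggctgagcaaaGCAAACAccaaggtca
The match began 79 bases before the start in Ahsg, 42 in Fetub and 16 in Ambp. Of 4 other motifs searched in the same window of 10 member starts, the C/EBP letters TTGCNNAA stood in Ahsg, Itih2 and Hpx (9.56% of all starts), the HNF1 half-site GTTAAT in Itih1 (6.43%), TATAAA in Fetub (12.4%) and the HNF4 letters CAAAGTCC in no member (1.2%). A match is a description of letters, and none of these sites was measured in these livers. In Fetub the 2 motifs did not overlap.

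Summed FPKM was between 353712 and 450597 per mouse, and low values stepped in a way that put the relative depth of 33 libraries between 0.892 and 1.11. Day 25 replicate 2 (1.185 and 1.296) and Day 45 replicate 3 (1.132 and 1.194) were left out of that range. Their 2 estimates differed by more than 2%. Day 30 replicate 1 (1.412 and 1.414) was left out because its estimates lay near the upper end of the values searched, so that its depth is uncertain. The liver label was checked against marker genes. The 5 hepatocyte markers (Alb, Apoa1, Apob, Ttr and Hnf4a) were above 1 FPKM on average at every age, and their summed level averaged 8068 FPKM at GD17.5, then 40986 at Day 0 and 40909 at Day 60. The 6 erythroid markers averaged 27087 FPKM together at GD17.5, then 12358 at Day 0 and 154 at Day 60, and the granulocyte markers 1211, 1880 and 0.371. Transcripts of 4 digestive enzymes of the exocrine pancreas summed to 14061 FPKM in Day 60 replicate 1 and to between 3313 and 4557 in 4 other mice (Day 0 replicate 3, Day 15 replicate 3, Day 20 replicate 2 and Day 45 replicate 1), and to at most 1032 in any other mouse, and 4 muscle transcripts summed to 1126 FPKM in Day 0 replicate 1. Counts of calls are therefore also given without these 6 mice.

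Ahsg was the most abundant member at every age. The 3 fetuses of GD17.5 had 3043, 2456 and 3856 FPKM and the 3 newborns of Day 0 had 27179, 26008 and 27022 FPKM, so that every newborn lay far above every fetus. Levels of 23169.6, 26767 and 27194 FPKM at Day 1 were followed by 36535, 44539 and 39519 at Day 3 and 38111, 40394 and 29845 at Day 5. The highest mean was at Day 10, with 40008, 50079.6 and 46453 FPKM and a mean of 45513 ± 5101 FPKM (SD, n = 3), which is 14.6-fold above GD17.5. From there each later age had a lower mean. It was 37311, 33389.6 and 43124 FPKM at Day 15 and 21978, 24737 and 30378 at Day 20, and after weaning 15588, 16567 and 16377 at Day 25, 10773, 12105 and 13669 at Day 30, 7683, 6860.2 and 9685 at Day 45 and 4975, 5342 and 7037 at Day 60. The means at Day 10 and Day 60 differed 7.87-fold, and the mice of these ages did not overlap.

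Fetub, the neighbour of Ahsg, was the scarcest member before birth. It had 2.61, 3.72 and 3.35 FPKM at GD17.5, then 173, 114 and 128 at Day 0 and 231, 301 and 317 at Day 1. The means of Day 0 and GD17.5 differed 42.9-fold, the largest step between these ages among the 9 genes. The level was 266, 268 and 207 FPKM at Day 5 and 355, 393 and 397 at Day 10. Its highest values were 501, 524 and 693 FPKM at Day 20, where replicate 3 stood above the other two, and its mean there of 573 ± 105 FPKM (SD, n = 3) was 177-fold above GD17.5. At Day 60 it had 325, 357 and 357 FPKM. The highest mean of Fetub was 1.65-fold its adult mean, against 7.87-fold for Ahsg, so that the adult level lay near the peak for Fetub and far below it for Ahsg.

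Ambp, the source of bikunin and alpha-1-microglobulin, showed the smallest range after birth. It had 133, 244 and 166 FPKM at GD17.5 and 1071, 1074 and 828 at Day 0, with no overlap, and 1160.2, 1119 and 994 at Day 5. Day 10 had 1716, 1625 and 1786 FPKM, above all mice of earlier ages. At Day 60 it had 1492, 1355 and 1443 FPKM. Its age means after birth spanned 1.72-fold, from 991 FPKM at Day 0 to 1709 at Day 10, whereas those of the other 8 genes spanned between 3.34-fold (Azgp1) and 7.87-fold (Ahsg).

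The heavy chains took separate courses. Itih3, the heavy chain of pre-alpha-inhibitor, was an early gene. It had 95.6, 94.1 and 87.4 FPKM at GD17.5, then 621, 565 and 571 at Day 0 and its highest mean, 860 FPKM, at Day 3 (869, 887 and 825). Values of 583, 489 and 557 FPKM at Day 20, 324, 269 and 396 at Day 25 and 201, 192 and 251 at Day 60 show the decline, which left the adult mean 4.01-fold below the peak.

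Itih2, a heavy chain of inter-alpha-inhibitor, had the smallest step from GD17.5 to Day 0 among the 9 genes, 2.46-fold. Its 3 mice had 111, 93.4 and 67.8 FPKM at GD17.5, then 290.2, 224 and 154 at Day 0 and 426, 289 and 294 at Day 5. All mice of Day 10 (873, 698 and 576 FPKM) and Day 15 (936, 724 and 649) were above all those of earlier ages. Later values were 546, 419.7 and 474 FPKM at Day 20 and 262, 143 and 245 at Day 25, and 196, 191 and 248 at Day 60, where all 3 adults were below the 3 mice of Day 1. Replicates of Itih2 spread more than those of the other members (pooled SD 0.33 on the log2(FPKM) scale, without a pseudocount, against 0.15 to 0.31).

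Itih1, the partner of Itih2 in inter-alpha-inhibitor, and Itih4, an acute-phase protein, rose later. Itih1 had 17.4, 16.8 and 16.7 FPKM at GD17.5, then 96.9, 91.8 and 78.0 at Day 0 and 153, 157 and 115 at Day 5, and reached 317, 304 and 335 at Day 15. Its adult values, 208, 203 and 243 FPKM, were 1.46-fold below the peak on average. Itih4 had 35.9, 48.0 and 36.8 FPKM at GD17.5, then 246, 277 and 192 at Day 0 and 302, 289 and 237 at Day 5. The means of Days 0, 1, 3 and 5 ran from 238 to 276 FPKM, and the gene then reached 785, 643 and 521 FPKM at Day 10, 948, 1042 and 1036 at Day 15 and 1164, 989.6 and 1249 at Day 20. Day 25 brought 724, 531 and 868 FPKM, below every mouse of Day 20, and Day 60 had 518, 563 and 625.

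Hpx, hemopexin, which binds free heme in plasma and delivers it to the receptor LRP1, was higher at each age than at the age before from Day 0 to Day 10. It had 39.3, 101 and 83.7 FPKM at GD17.5, then 648, 706 and 607 at Day 0, 883, 1083 and 1199 at Day 1 and 1567, 1817 and 1657 at Day 3. Day 5 had 2012, 2722 and 1848 FPKM and Day 10 had 3585, 4407 and 4017, again without overlap. From Day 10 on the age means stayed between 3774 and 4612 FPKM, and the adults, with 2679.6, 3178 and 5463 FPKM, were split, since replicate 3 lay near the highest value of the series (5485 FPKM in a mouse of Day 25) and replicate 1, the mouse with pancreatic transcripts, was the lowest at that age.

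Azgp1, a plasma glycoprotein with the fold of a class I major histocompatibility molecule that is linked to lipid breakdown in fat tissue, was the member with its highest mean in the adult. It had 14.3, 13.4 and 20.4 FPKM at GD17.5, then 285, 192 and 226 at Day 0 and 343, 341 and 354 at Day 1. Between Day 1 and Day 10 the age means stayed within 300.4 and 361 FPKM. From Day 10 each later age had a higher mean, with 499, 542 and 539.6 FPKM at Day 20, 560.4, 742 and 659 at Day 30 and 748, 781 and 817 at Day 60, and all 3 adults stood above every mouse of Day 30 and earlier.

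**Figure D1:**
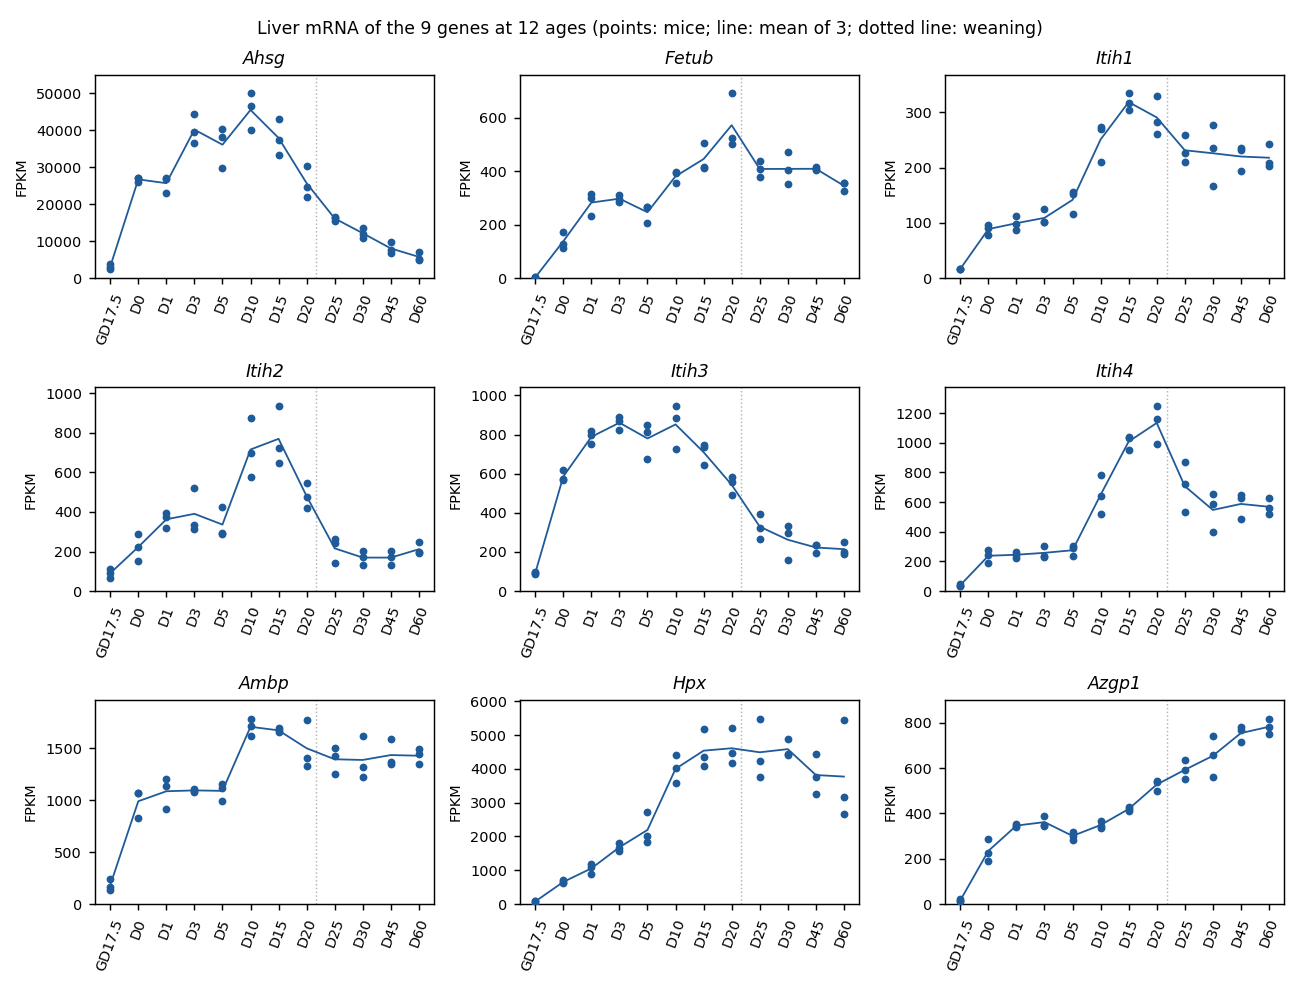
Level of each gene in FPKM (vertical axis, linear, from 0, scaled per gene) against age (horizontal axis, ages in order and evenly spaced), with 1 point per mouse and a line through the mean of 3 mice, and weaning at 21 days as a dotted line. All 9 genes were lowest at GD17.5. Ahsg peaked at Day 10 and Itih3 at Day 3, Itih1 and Itih2 at Day 15, Itih4, Fetub and Hpx at Day 20, and Azgp1 was highest at Day 60.

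Ahsg alone made up 0.735% ± 0.162 (SD, n = 3) of all summed FPKM at GD17.5, 6.21% ± 0.0259 (SD, n = 3) at Day 0 and 11.3% ± 0.896 (SD, n = 3) at Day 10. By mean level it ranked 8th of all genes at GD17.5, 1st at Days 1 to 10 and 9th at Day 60, when its share was 1.46% ± 0.298 (SD, n = 3). The 9 genes together made up 0.856% of summed FPKM at GD17.5, then 13.5% at Day 10 and 3.37% at Day 60, and Ahsg made up 85.3% of their sum at GD17.5 and 43.5% at Day 60. FPKM values are relative to the whole library of a mouse, in which a share of this size leaves less for all other genes.

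**Figure D2:**
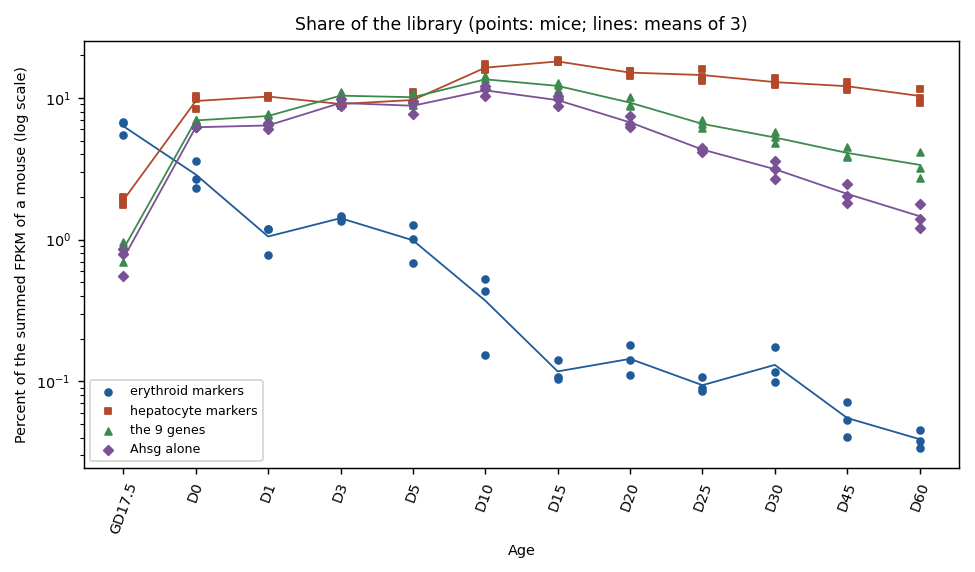
Percent of the summed FPKM of each mouse (vertical axis, log scale) held by the 9 genes, by Ahsg alone, by 5 hepatocyte markers and by 6 erythroid markers, against age, with points for mice and lines through means of 3. Erythroid markers held 6.37% at GD17.5 and 0.0389% at Day 60, hepatocyte markers 1.90% and 10.3%, and the 9 genes peaked at Day 10 with 13.5%.

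The order of the 9 levels changed with age. At GD17.5 the order was Ahsg, Ambp, Itih3, Itih2, Hpx, Itih4, Itih1, Azgp1 and Fetub. Itih3, Itih2, Hpx and Itih4 overlapped there, each with the next, as did Itih1 and Azgp1. At Day 10 the order was Ahsg, Hpx, Ambp, Itih3, Itih2, Itih4, Fetub, Azgp1 and Itih1, with overlap among Itih3, Itih2 and Itih4 and between Fetub and Azgp1. At Day 60 Ahsg and Hpx overlapped for the only time in the series. Ambp, Azgp1, Itih4 and Fetub followed without overlap, and Itih1, Itih3 and Itih2 overlapped at means of 218, 214 and 212 FPKM. At Day 3 the same 3 heavy chains had lain apart without overlap, at 109 (Itih1), 860 (Itih3) and 391 FPKM (Itih2).

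The widest comparison in age was GD17.5 against Day 60. All 9 genes were lower at GD17.5 with a limma adjusted p under 0.05 on the log2(FPKM + 1) scale, where 75.1% of the 11149 genes tested were called and 18.6% were called lower. The median difference of the 9 was -3.60, beside 0.56 over all genes tested. The largest differences were in Fetub (-6.37 ± 0.15 (SE), limma adjusted p = 6.04e-24), Hpx (-5.68 ± 0.24 (SE), limma adjusted p = 2.39e-18) and Azgp1 (-5.54 ± 0.13 (SE), limma adjusted p = 4.12e-24). The smallest were in Ahsg (-0.90 ± 0.16 (SE), limma adjusted p = 1.7e-05), Itih3 (-1.20 ± 0.18 (SE), limma adjusted p = 7.05e-07) and Itih2 (-1.23 ± 0.25 (SE), limma adjusted p = 7.88e-05), and Ambp, Itih1 and Itih4 differed by -3.02, -3.60 and -3.80.

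The direction for Ahsg, Itih3 and Itih2 depended on what a level was set against. The share of erythroid markers was higher and that of hepatocyte markers lower at GD17.5, and their part in the differences was not tested. Libraries were also scaled to a common geometric mean of the 5 hepatocyte markers, a setting chosen after seeing the data. In that mean each marker counts equally, so it need not follow their summed FPKM. Without this scaling all 5 markers were themselves lower at GD17.5 than at Day 60, from -1.04 (Apoa1) to -3.20 (Alb). Apoa1 was also the gene most like Ahsg (r of 0.968) and Itih3 (0.965) in course, by Pearson's r over the 12 age means. Scaling to the markers therefore also takes out any course that a member shares with them. Every value given below against the hepatocyte markers is on this scaling. Ahsg (0.91), Itih3 (0.60) and Itih2 (0.56) were then higher at GD17.5 than at Day 60, with limma adjusted p of 0.00116, 0.00384 and 0.00957. The other 6 genes were lower, from -1.22 (Ambp) to -4.83 (Fetub). This scaling moved the median of all genes to 2.05, so that all 9 genes were below that median under either scaling. When the upper quartile was made equal across libraries, all 9 genes were lower at GD17.5.

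Each age was also compared with Day 60, and every gene differed from the adult at 1 age or more (all 9, where 90.7% of all genes did). Over the 11 ages, 61 of 99 member differences were called, 27 higher and 34 lower. Among all genes the share called ran from 75.1% at GD17.5 to 0.233% at Day 45. At Day 0 there were 8 calls (all genes: 63.9%), 2 higher (43.6%) and 6 lower (20.3%). Day 1 had 8 (65%), with 3 higher (53.4%) and 5 lower (11.7%), and Day 3 had 8 (66%), with 3 higher (55.7%) and 5 lower (10.3%). At Day 5 all 9 were called (65.4%), 3 higher (56.9%) and 6 lower (8.5%). The genes above the adult level from Day 1 to Day 20 were Ahsg, Itih2 and Itih3, and the genes below it from Day 0 to Day 5 were Itih1, Itih4, Ambp, Hpx and Azgp1. Fetub was below it at Days 0 and 5. The call of Itih2 at Day 5 (0.65, limma adjusted p = 0.0257) was lost without Day 5 replicate 1 (0.47, limma adjusted p = 0.15), Day 60 replicate 1 (0.60, limma adjusted p = 0.073) or Day 60 replicate 2 (0.58, limma adjusted p = 0.079), and with values as TPM (0.61, limma adjusted p = 0.067). Dunnett's comparison did not call Itih2 at Days 1 and 5, and a common upper quartile ended its calls at Days 1 (0.29), 3 (0.23) and 5 (0.02), with limma adjusted p of 0.30, 0.44 and 0.95. Fetub at Day 5 did not pass without Day 5 replicate 3 (-0.37, limma adjusted p = 0.055) or against the hepatocyte markers (-0.56, limma adjusted p = 0.054). Against those markers Ambp lost its calls at Days 0, 1, 3 and 5 (-0.08, -0.14, -0.43 and -0.46, limma adjusted p = 0.79, 0.63, 0.14 and 0.12).

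Azgp1 was the only member called below the adult level at Days 10, 15 and 20, and limma called none below it at Days 25, 30 and 45. At Day 25 Azgp1 (-0.40) had a limma adjusted p of 0.057, and Dunnett's comparison did call it lower. Day 10 had 4 calls (46%), 3 higher (35.3%) and 1 lower (10.6%), and Days 15 and 20 had 6 each (27.4% and 15.9%), 5 higher (18.4% and 8.93%) and 1 lower (8.95% and 6.99%). Itih4 was above the adult level by 0.83 at Day 15 and 0.99 at Day 20, Itih1 by 0.55 at Day 15 and Fetub by 0.71 at Day 20, all on the log2(FPKM + 1) scale. Against the hepatocyte markers Itih4 at Day 15 (0.38, limma adjusted p = 0.15), Itih1 at Day 15 (0.11, limma adjusted p = 0.72) and Fetub at Day 20 (0.60, limma adjusted p = 0.12) no longer passed, while Itih4 at Day 20 did (0.88, limma adjusted p = 0.0017). Azgp1, the lower one, reached -0.57 at Day 20. At Day 25 Ahsg (1.50 ± 0.16 (SE)) and Itih3 (0.61 ± 0.18 (SE)) were still higher (2 genes, both higher, where 7.42% were called and 4.18% were higher), and at Day 30 Ahsg alone was (1.08 ± 0.16 (SE), where 3.56% were called and 1.77% were higher). At Day 45 limma called 0 members (0.233% of all genes, 0.0628% higher and 0.17% lower), and 1 gene, Ahsg (0.48), had an unadjusted p under 0.05, while Dunnett's comparison called none.

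Without the 6 mice that held pancreatic or muscle transcripts, which leaves 1 mouse at Day 0 and assumes that it varies like the others, 54 of the 99 differences from Day 60 were called (24 higher and 30 lower). The 7 calls lost were those of Ambp at Days 0, 1, 3 and 5, Itih2 at Day 5 (0.60, limma adjusted p = 0.065), Itih1 at Day 15 (0.48, limma adjusted p = 0.11) and Itih3 at Day 25 (0.57, limma adjusted p = 0.18). The differences of Ambp at Days 1, 3 and 5 were small (-0.40, -0.38 and -0.39), and each was also lost when Day 60 replicate 1 alone was left out (-0.37, -0.35 and -0.36, with limma adjusted p of 0.075, 0.091 and 0.084) or Day 60 replicate 3 (-0.40, -0.38 and -0.38, with 0.057, 0.070 and 0.064). They were also lost without Day 1 replicate 1 (-0.29, limma adjusted p = 0.16), any 1 mouse of Day 3 (-0.39 to -0.37, limma adjusted p = 0.059 to 0.072) or Day 5 replicate 3 (-0.33, limma adjusted p = 0.11), each for its own age. The call of Itih3 at Day 25 was lost without Day 60 replicate 1 (0.57, limma adjusted p = 0.12), Day 60 replicate 2 (0.53, limma adjusted p = 0.16), Day 25 replicate 1 (0.61, limma adjusted p = 0.069) or Day 25 replicate 3 (0.47, limma adjusted p = 0.19). That of Hpx at Day 5 was lost without Day 60 replicate 3 (-0.43, limma adjusted p = 0.13) or Day 5 replicate 3 (-0.62, limma adjusted p = 0.052). Dunnett's comparison did not call Ambp at Days 1, 3 and 5 or Hpx at Day 5 either.

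Differences between neighbouring ages place the changes between 2 sampled ages. Among all genes the share called in a step ran from 54.6% between GD17.5 and Day 0 to 0.233% between Day 45 and Day 60. The step from GD17.5 to Day 0 was the largest. It covers the end of gestation as well as birth, so that a rise within it cannot be placed at birth itself. Between GD17.5 and Day 0 all 9 genes rose, where 54.6% of all genes were called and 13.1% rose, and the median difference was 2.65 on the log2(FPKM + 1) scale for the 9 and -0.29 for all genes. The rises were largest in Fetub (5.03 ± 0.15 (SE), limma adjusted p = 3.55e-20), Azgp1 (3.79 ± 0.13 (SE), limma adjusted p = 4.73e-19), Hpx (3.21 ± 0.24 (SE), limma adjusted p = 1.85e-11) and Ahsg (3.12 ± 0.16 (SE), limma adjusted p = 5.72e-15), and smallest in Itih2 (1.27 ± 0.25 (SE), limma adjusted p = 0.000147). Over the same step the hepatocyte markers went from 1.90% to 9.52% of summed FPKM and the erythroid markers from 6.37% to 2.87%. Scaled to the geometric mean of the hepatocyte markers, 8 of the 9 genes still rose, by 1.03 (Itih1) to 3.95 (Fetub). The all-gene median was then -1.49, and Itih2 was not called (-0.06, limma adjusted p = 0.761).

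In the first day after birth 4 genes rose (31.6% of all genes called, 23.7% higher), namely Fetub (1.04 ± 0.15 (SE), limma adjusted p = 9.27e-06), Itih2 (0.74 ± 0.25 (SE), limma adjusted p = 0.0273), Hpx (0.68 ± 0.24 (SE), limma adjusted p = 0.0348) and Azgp1 (0.58 ± 0.13 (SE), limma adjusted p = 0.00139). The calls of Itih2 and Hpx were lost when Day 0 replicate 3, 1 of the mice with pancreatic transcripts, was left out (0.50 and 0.63, limma adjusted p = 0.20 and 0.12), and also without Day 0 replicate 2 or Day 1 replicate 2 (limma adjusted p = 0.051 to 0.083). Itih2 was further lost without Day 1 replicate 1 (0.68, limma adjusted p = 0.096) and Hpx without Day 0 replicate 1 (0.68, limma adjusted p = 0.061) or Day 1 replicate 3 (0.58, limma adjusted p = 0.10). Against the hepatocyte markers Azgp1 (0.39, limma adjusted p = 0.17) and Hpx (0.49, limma adjusted p = 0.28) no longer passed, and Fetub (0.84) and Itih2 (0.55) did. From Day 1 to Day 3 Ahsg rose (0.64 ± 0.16 (SE), limma adjusted p = 0.00958; 11.3% called, 8.22% higher), a call that did not pass without Day 1 replicate 1 (0.57, limma adjusted p = 0.054) or Day 3 replicate 2 (0.57, limma adjusted p = 0.064), nor against the hepatocyte markers (0.33, limma adjusted p = 0.41), with a common upper quartile (0.50, limma adjusted p = 0.099) or with no filter on low values (limma adjusted p = 0.18). No member passed limma's test from Day 3 to Day 5 (3.2%), where 1 gene had an unadjusted p under 0.05.

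A second joint rise came between Day 5 and Day 10. It was called in 6 genes, where 36.3% of all genes were called and 1.88% rose, while the median of all genes fell by 0.31. Itih4 (1.22 ± 0.19 (SE), limma adjusted p = 1.53e-05) and Itih2 (1.09 ± 0.25 (SE), limma adjusted p = 0.0013) rose most. Hpx (0.88 ± 0.24 (SE), limma adjusted p = 0.00585), Itih1 (0.82 ± 0.16 (SE), limma adjusted p = 0.00018), Ambp (0.65 ± 0.16 (SE), limma adjusted p = 0.00194) and Fetub (0.63 ± 0.15 (SE), limma adjusted p = 0.00191) followed. Ahsg (0.34), Azgp1 (0.21) and Itih3 (0.12) did not pass. The hepatocyte markers together went from 9.68% to 16.4% of summed FPKM in this step. Scaled to their geometric mean, Hpx (0.51, limma adjusted p = 0.170), Ambp (0.28, limma adjusted p = 0.326) and Fetub (0.26, limma adjusted p = 0.350) no longer passed.

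Itih4 rose once more from Day 10 to Day 15 (0.65 ± 0.19 (SE), limma adjusted p = 0.0237; 12% called, 1.52% higher), a call lost without Day 10 replicate 3 (0.50, limma adjusted p = 0.14), Day 10 replicate 2 (0.66, limma adjusted p = 0.067), Day 15 replicate 2 (0.63, limma adjusted p = 0.10) or Day 15 replicate 3 (0.63, limma adjusted p = 0.076). No member passed limma's test from Day 15 to Day 20 (1.99%), where 5 genes had an unadjusted p under 0.05. The pups were weaned in the next step, from Day 20 to Day 25, where 4 genes fell and 0 rose (7.19% called, 3.26% lower and 3.94% higher): Itih2 (-1.19 ± 0.25 (SE), limma adjusted p = 0.00236), Itih3 (-0.73 ± 0.18 (SE), limma adjusted p = 0.00791), Itih4 (-0.70 ± 0.19 (SE), limma adjusted p = 0.0218) and Ahsg (-0.66 ± 0.16 (SE), limma adjusted p = 0.0107). Without Day 20 replicate 3 the calls of Ahsg (-0.53, limma adjusted p = 0.096) and Itih4 (-0.63, limma adjusted p = 0.11) were lost, and without Day 25 replicate 2 those of Itih3 (-0.60, limma adjusted p = 0.078) and Itih4 (-0.51, limma adjusted p = 0.20), so that either choice left 2 falling genes. Itih4 was also lost without Day 20 replicate 1 (-0.68, limma adjusted p = 0.065). Against the hepatocyte markers Itih2 alone still fell (-1.02, limma adjusted p = 0.0010), and Ahsg (-0.48), Itih3 (-0.56) and Itih4 (-0.53) had limma adjusted p of 0.34, 0.079 and 0.13. Ahsg did not pass with no filter on low values either (limma adjusted p = 0.28). The later steps, from Day 25 to Day 30 (1.64%), Day 30 to Day 45 (1.03%) and Day 45 to Day 60 (0.233%), held no call by limma, with 2, 1 and 1 genes at an unadjusted p under 0.05. In all, 25 of 99 steps were called, 21 rises and 4 falls, and 21 (18 rises and 3 falls) without the 6 mice with pancreatic or muscle transcripts.

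**Figure D3:**
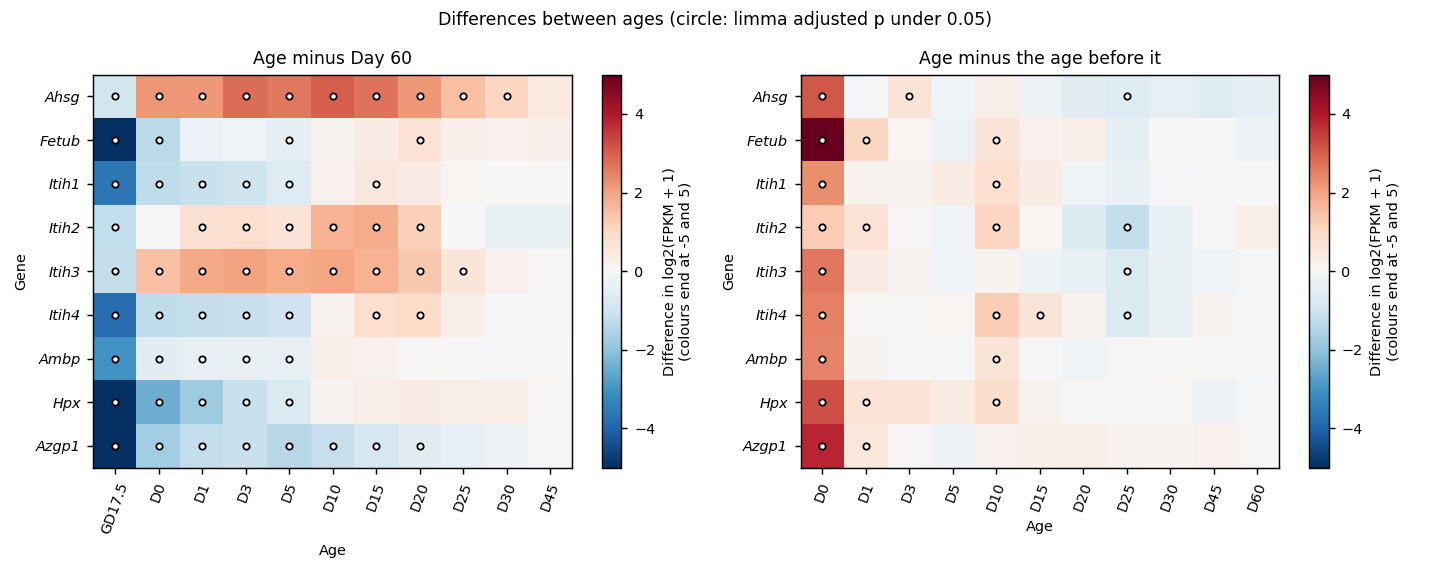
Differences of the mean log2(FPKM + 1) of each gene (rows), as an age minus Day 60 (left) and an age minus the age before it (right), in colour from -5 to 5, with a circle where the limma adjusted p was under 0.05. The left panel shows 61 circles, with Ahsg, Itih2 and Itih3 red through suckling and Azgp1 blue up to Day 20, and the right panel shows 25, mostly at Day 0 and Day 10.

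The study's 3 age groups put each course into 2 numbers per gene. The earliest group holds GD17.5, the lowest age of every member. Itih3 had a mean of 92.4 FPKM there, then 586, 788, 860 and 780 at Days 0, 1, 3 and 5. Its means at Days 10, 15 and 20 were 852, 710 and 543 FPKM, so that its rise between these groups rested on GD17.5. Days 10 to 20 were above GD17.5 to Day 5 in all 9 genes (75.8% called, 14.6% higher, with an all-gene median of -0.35), from 0.48 ± 0.09 (SE) in Itih3 (limma adjusted p = 2.73e-05) to 2.63 ± 0.13 (SE) in Hpx (limma adjusted p = 2.69e-17) on the log2(FPKM + 1) scale. Against the hepatocyte markers 7 were above (all-gene median -0.94), Ahsg did not differ by the test (0.02, limma adjusted p = 0.890) and Itih3 was below (-0.33, limma adjusted p = 0.00248). Days 25 to 60 were below Days 10 to 20 in 7 genes and above in 1 (57.3% called, 44.9% lower and 12.4% higher, all-gene median -0.19). The falls were largest in Ahsg (-1.85 ± 0.09 (SE), limma adjusted p = 1.56e-16), Itih2 (-1.76 ± 0.14 (SE), limma adjusted p = 9.21e-12) and Itih3 (-1.46 ± 0.10 (SE), limma adjusted p = 2.08e-13), and these 3 stayed below under both other scalings. Azgp1 was the gene that rose (0.70 ± 0.07 (SE), limma adjusted p = 1.99e-09), and Hpx was not called (-0.10 ± 0.13 (SE), limma adjusted p = 0.552). The smaller falls of Itih4 (-0.60), Itih1 (-0.36), Fetub (-0.23) and Ambp (-0.20) did not pass against the hepatocyte markers. With a common upper quartile, Fetub (-0.08, limma adjusted p = 0.51) and Ambp (-0.06, limma adjusted p = 0.66) did not pass either. Itih4 (-0.46) and Itih1 (-0.21) still fell under that setting. Fetub (-0.20) and Ambp (-0.22) were also not called without the mice that held pancreatic or muscle transcripts. The fall of Ambp (limma adjusted p = 0.0425) was also lost without any 1 of 13 mice, and that of Fetub without Day 15 replicate 3 (-0.19, limma adjusted p = 0.055) or Day 20 replicate 3 (-0.18, limma adjusted p = 0.07).

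Ratios within a mouse do not depend on scaling between libraries, apart from the pseudocount of 1 FPKM. The ratio of Ahsg to Fetub was 992 ± 288 (SD, n = 3) at GD17.5, 198 ± 36.8 (SD, n = 3) at Day 0, 119 ± 7.67 (SD, n = 3) at Day 10, 39.7 ± 1.82 (SD, n = 3) at Day 25 and 16.7 ± 2.65 (SD, n = 3) at Day 60. The mean log2 ratio of GD17.5 to Day 5 was above that of Days 10 to 60 by 2.25 (two-sided exact permutation test over 12 age means, p = 0.00505, adjusted over 7 ratios 0.00707). This test, used for all 7 ratios, treats the 12 ages as exchangeable, although they are ordered in time. A trend with age alone can give a p near its lower limit, and the p does not measure the spread between mice. The fall was not steady, since the ratio was 91.6 ± 7.57 (SD, n = 3) at Day 1 and 146 ± 4.25 (SD, n = 3) at Day 5. The adult levels of the pair that lies side by side on the chromosome were thus closer than those before birth.

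Each heavy chain was set against Ambp, which supplies the light chain of those joined to bikunin. The product of Itih4 circulates without bikunin, so that its ratio to Ambp is not a balance of subunits. Itih3 per Ambp was 0.785 ± 0.0197 (SD, n = 3) at Day 3 and 0.150 ± 0.0209 (SD, n = 3) at Day 60, and the earlier ages were higher by 1.36 on the log2 scale (exact permutation p = 0.00253, adjusted 0.00442). Itih4 per Ambp went the other way, from 0.227 ± 0.0210 (SD, n = 3) at Day 1 to 0.762 ± 0.0996 (SD, n = 3) at Day 20, with a log2 difference of -0.999 between the earlier and the later ages (exact permutation p = 0.00253, adjusted 0.00442). Itih1 per Ambp was 0.0901 ± 0.00441 (SD, n = 3) at Day 0 and 0.195 ± 0.0153 (SD, n = 3) at Day 20, a difference of -0.70 on the log2 scale between the age groups (exact permutation p = 0.00253, adjusted 0.00442). Each p of 0.00253 is the smallest that the splits of 12 ages can give. For Itih2 per Ambp the difference of 0.64 did not pass (exact permutation p = 0.141). That ratio was 0.541 ± 0.251 (SD, n = 3) at GD17.5, 0.222 ± 0.0437 (SD, n = 3) at Day 0, 0.459 ± 0.0843 (SD, n = 3) at Day 15 and 0.158 ± 0.0579 (SD, n = 3) at Day 25. Set against Days 25 to 60 alone, the earlier ages were higher by 1.31 on the log2 scale (exact permutation p = 0.0159).

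Hpx and Azgp1 both gained on Ahsg. Hpx per Ahsg was 0.0245 ± 0.00239 (SD, n = 3) at Day 0, 0.0880 ± 0.00158 (SD, n = 3) at Day 10 and 0.637 ± 0.124 (SD, n = 3) at Day 60, with the earlier ages lower by a log2 difference of -2.80 (exact permutation p = 0.00253, adjusted 0.00442). Azgp1 per Ahsg was 0.00874 ± 0.00160 (SD, n = 3) at Day 0, 0.00771 ± 0.000774 (SD, n = 3) at Day 10 and 0.138 ± 0.0187 (SD, n = 3) at Day 60, with a log2 difference of -1.94 (exact permutation p = 0.0227, adjusted 0.0265).

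**Figure D4:**
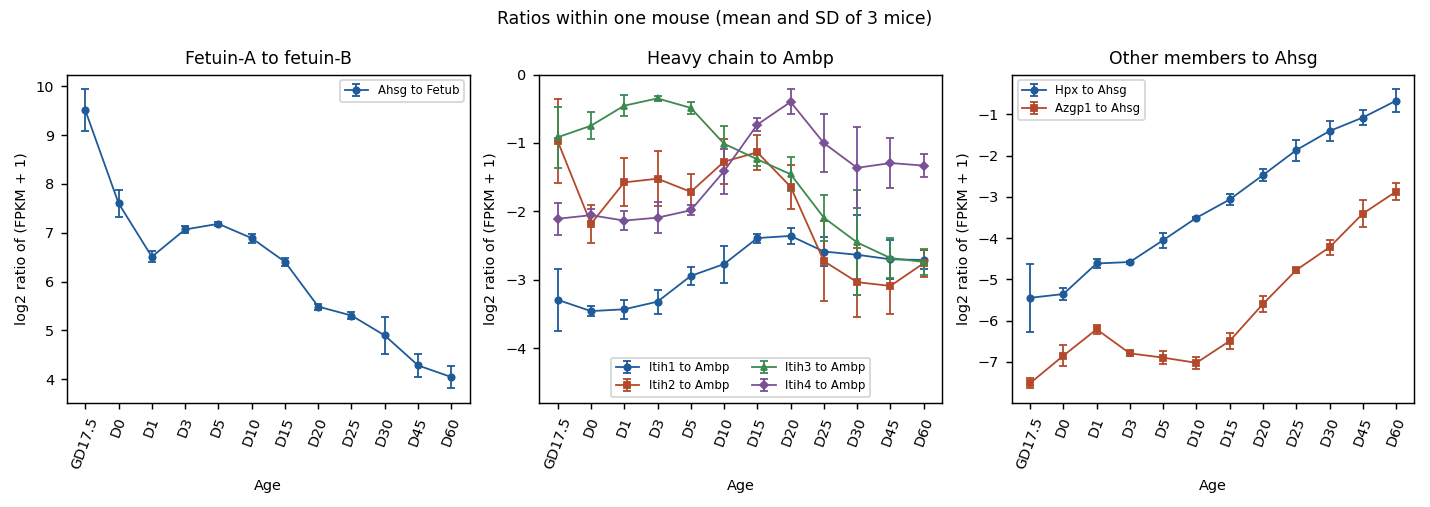
Mean log2 ratio of (FPKM + 1) within a mouse (vertical axis) against age, with error bars for the SD of 3 mice: Ahsg to Fetub, each heavy chain to Ambp, and Hpx and Azgp1 to Ahsg. The first is 9.51 at GD17.5 and 4.04 at Day 60, with a rise from Day 1 to Day 5 in between. Itih3 to Ambp is highest at Day 3 and Itih4 to Ambp at Day 20, and the last 2 ratios are highest at Day 60.

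Genes that work with these proteins were counted in the comparison of GD17.5 with Day 60. Of 48 related genes 40 were tested, and 36 were called, 10 higher and 26 lower at GD17.5 (75.1% of all genes called, 56.4% higher and 18.6% lower), with a median difference of -1.21 on the log2(FPKM + 1) scale beside 0.56 over all genes. Among the cystatin-type plasma proteins, the family that holds the fetuins, 4 of 5 were lower and 1 higher. Hrg, the next gene beyond Fetub, was lower by a log2 difference of -6.32 ± 0.23 (SE) (limma adjusted p = 4.66e-20), with 5.44 ± 1.08 FPKM (SD, n = 3) at GD17.5 and 1054 ± 167 FPKM (SD, n = 3) at Day 20. Kng1, the precursor of bradykinin, was lower as well (-2.43 ± 0.14 (SE), limma adjusted p = 4.03e-15).

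Of 13 genes of hyaluronan and the inter-alpha-trypsin pathway, 6 were tested, of which 4 were higher and 1 was lower. Tnfaip6, which encodes the enzyme that moves heavy chains to hyaluronan, was not tested, since its mean reached at most 0.0658 FPKM, at Day 1. The heme group had 3 higher and 2 lower of 6 tested. Hmox1, the heme-degrading oxygenase, was higher at GD17.5 (3.58 ± 0.22 (SE), limma adjusted p = 1.21e-14) and so was the heme transporter Slc48a1 (2.35 ± 0.15 (SE), limma adjusted p = 4.52e-14), while Lrp1, the receptor for hemopexin with heme, was lower (-1.48 ± 0.27 (SE), limma adjusted p = 1.49e-05). Hmox1 had 109 ± 9.91 FPKM (SD, n = 3) at GD17.5 and 8.32 ± 1.98 FPKM (SD, n = 3) at Day 60, opposite in direction to Hpx.

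Kunitz-type inhibitors had 1 higher and 3 lower of 5, and genes of mineral and glycoprotein handling 0 higher and 6 lower of 7. The asialoglycoprotein receptor subunit Asgr1, which clears glycoproteins that have lost sialic acid, had the largest deficit of all related genes at GD17.5 against Day 60 (-6.49 ± 0.22 (SE), limma adjusted p = 7.3e-21). Of 11 other liver plasma proteins 10 were lower, among them the vitamin D carrier Gc (-5.27 ± 0.22 (SE), limma adjusted p = 1.1e-18) and Alb, albumin (-3.20 ± 0.16 (SE), limma adjusted p = 7.45e-17). The 1 that was higher was Afp, alpha-fetoprotein (10.93 ± 0.57 (SE), limma adjusted p = 2.19e-16), with a level of 3601 ± 180.0 FPKM (SD, n = 3) before birth and 0.906 ± 0.592 FPKM (SD, n = 3) in the adult. With libraries scaled to the hepatocyte markers 17 related genes were higher and 14 lower, and with a common upper quartile 6 were higher and 29 lower.

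**Figure D5:**
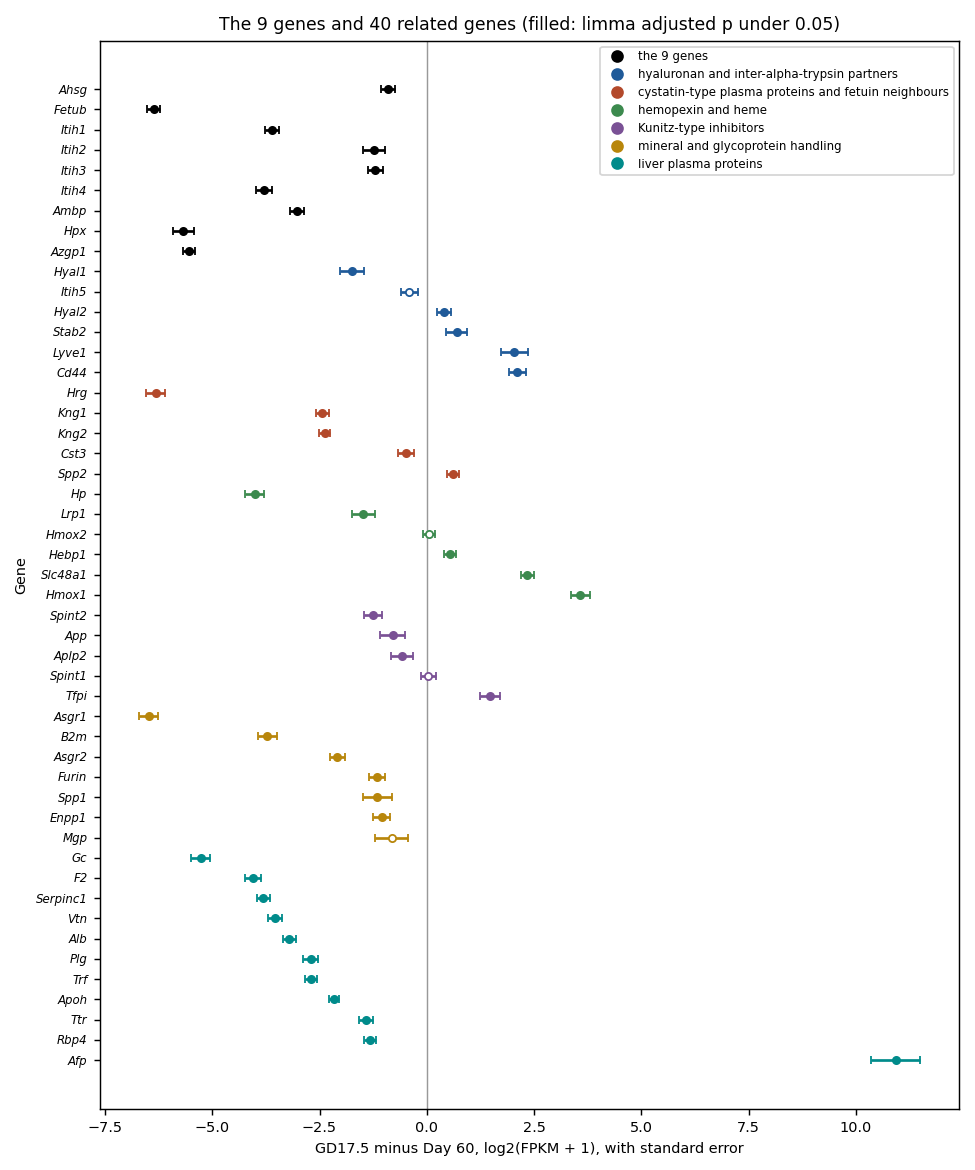
Difference between GD17.5 and Day 60 in log2(FPKM + 1) (horizontal axis, negative where GD17.5 was lower) with its standard error for the 9 genes and 40 related genes (vertical axis), coloured by list and filled where the limma adjusted p was under 0.05. The 9 genes sit between -6.37 and -0.90, and Afp lies farthest to the right at 10.93.

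The genes most like each member in course, among non-members with at least 100 FPKM at some age, were found by Pearson's r over the 12 age means of log2(FPKM + 1). These values are a description over 12 points that share libraries and the low level at GD17.5. Ahsg and Itih3 had the same closest pair, the apolipoprotein Apoa1 (r of 0.968 and 0.965) and the glyoxylate reductase Grhpr (0.961 and 0.964). Itih1 and Itih4 shared theirs too, prothrombin F2 (0.984 and 0.979) and complement factor B Cfb (0.983 and 0.984). Ambp was closest to vitronectin Vtn (0.994) and antithrombin Serpinc1 (0.986). Fetub was closest to the cytochrome P450 Cyp2e1 (0.992) and to Asgr1 (0.990), Hpx to paraoxonase Pon1 (0.989) and Ninj1 (0.988), and Azgp1 to Serpina1d (0.990) and the gap junction gene Gjb1 (0.989). Itih2 had no gene as close, its first being Hoga1 (0.896) and angiotensinogen Agt (0.886).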

How the data were processed

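According to the study, libraries of polyadenylated RNA were made from the livers with an Illumina TruSeq kit, which does not mark strand. Reads were mapped by the authors to NCBI37/mm9 (TopHat 1.2.0), abundance was estimated (Cufflinks 1.0.3) and transcripts were matched to Ensembl 65. The deposited table gives 1 linear FPKM value per gene symbol and mouse, without counts, so no count model was used and the number of fragments is unknown. The study states that the mice of each age were picked at random from several litters, and which mouse came from which litter is not given in the sources used here. Genes that reached a mean of 1 FPKM at some age (11149, with all 9 members) were tested on log2(FPKM + 1) with limma 3.58.1 in R 4.3.3, with 1 mean per age over all 36 mice and variances that follow the mean, and p-values were adjusted by Benjamini-Hochberg over all genes within a comparison, or over all genes and comparisons for differences at 1 age or more. A pseudocount understates changes of low genes. In simulated data for GD17.5 against Day 60, with 200 of 11149 genes changed, 79% of 2-fold and 98% of 4-fold changes were recovered and 4.84% of calls were false. In the measured livers 75.1% of genes were called between these ages. Whether these percentages hold with that many changed genes was not tested. Ratios were tested with SciPy 1.17.1. Positions came from GENCODE M1. Members, related lists, motifs and tests were chosen with earlier results of these data known, by this rule: all members, the 3 related genes furthest above and furthest below Day 60 at GD17.5, 7 set partners, and 2 most alike genes per member.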

Additional observations from a re-analysis of the deposited data

How the results depend on the processing

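Results were recomputed with a pseudocount of 0.1, without a filter or with one at 5 FPKM, an equal upper quartile, TPM, no variance trend, the replicate number as a block, Dunnett's comparison, adjustment over all comparisons, each mouse left out, and 2 added after seeing the data: scaling to the hepatocyte markers and leaving out the 6 mice named above. Of 104 results for single members, 16 lost their call without 1 mouse (56 of 3744 fits) and none turned. Over the other settings 880 of 936 kept direction and call, 46 lost the call and 10 turned. Scaled to hepatocyte markers, the members higher at GD17.5 than at Day 60 were 3 and calls between neighbouring ages 15, of which 1 fell; Days 10 to 20 held 1 lower gene, and Days 25 to 60 held 4 called genes, 3 lower. Related genes were then 17 higher and 14 lower, and 6 higher with a common upper quartile. The results that turned under that marker scaling were, at GD17.5, Ahsg 0.907, Itih2 0.560 and Itih3 0.598, and from GD17.5 to Day 0 Itih2 -0.0645. Others were Itih3 -0.326 at Days 10 to 20, and Fetub 0.199, Itih1 0.0687, Ambp 0.222 and Hpx 0.330 at Days 25 to 60. With a common upper quartile Hpx turned to 0.0491. The cause was not tested. That quartile also ended the calls of Itih2 above Day 60 at Days 1, 3 and 5. Itih2 per Ambp passed against Days 25 to 60 alone (1.31). Falls between neighbouring ages were 2 to 5 with 1 mouse left out. Dunnett's comparison, run for the members only, called 56 differences from Day 60, against 61.

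Equal replicate numbers are different mice. Deviations of same-numbered mice correlated with a median r of 0.126 (104 of 198 pairs over 0.1), against -0.0476 for mice with different numbers (147 of 396 pairs over 0.1), and 19 of 36 mice were closest to their own number. Mice that shared a number thus deviated together to a small degree. The fits were left without the block because not every pair was over 0.1 and no source says what the number marks. With the replicate block, 61 calls against Day 60 and 28 between neighbouring ages (22 rises and 6 falls) were made, and no member call was lost.

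With 3 mice per age a difference has to exceed the spread between few animals, and without counts the fragments behind low values, such as Fetub at GD17.5, are unknown.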

Other observations

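Itih2 was highest in the mouse numbered 1 at 10 of 12 ages, whereas Fetub was lowest in that mouse at 9 ages, Hpx at 8 and Ahsg and Azgp1 at 7. For Itih1, Itih3, Itih4 and Ambp no number was highest or lowest at more than 6 of the 12 ages. What the number stands for is not given in the sources used here.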
